A study of Mus musculus with 6 samples.

Results

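The 10 genes described here belong to interleukin-6 (IL-6) and JAK-STAT3 signalling or to receptors that act beside it: the IL-6 receptor genes *Il6ra* and *Il6st*, the receptor genes *Osmr*, *Lifr* and *Il1r1* for related cytokines and interleukin-1 (IL-1), the kinase genes *Jak1*, *Jak2* and *Tyk2*, the transcription factor gene *Stat3* and its feedback inhibitor *Socs3*. They were chosen by symbol, and all 10 were found among the 24421 genes of the table that the authors deposited. Hepatic mRNA was sequenced from 3 WT mice and 3 Pai-1+/- mice, which carry one disrupted copy of the gene for plasminogen activator inhibitor 1. All were C57BL/6 mice on standard chow, fed ad lib and, in the sample labels, 21 weeks old. The paper describes these mice as males of the C57BL/6 J strain and gives a slightly younger age. The heterozygotes came from a cross of Pai-1-/- and WT mice, so the disrupted copy was inherited and not limited to one cell type, and what was measured is whole liver and not hepatocytes alone.

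The value available for each gene is the authors' mean of the normalized counts over all libraries, WT and Pai-1+/- together. The table of counts per animal names its columns by numbers that no sample label gives. No column could therefore be assigned to a sample, and those counts were not used. The values used therefore show how abundant each gene was in these livers as a whole. No difference between Pai-1+/- and WT, no value per mouse and no spread between mice was analysed here, so a statement that one gene exceeded another is a description of 2 means and was not tested.

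IL-6 binds the IL-6 receptor alpha chain, and the pair recruits gp130, the product of *Il6st*, which all cytokines of the family share. Kinases of the JAK family, bound to the inner part of gp130, then phosphorylate STAT3, which enters the nucleus and turns on genes of the acute phase response in hepatocytes. SOCS3 is among the first of these genes and shuts the receptor down. In liver this route is known for fibrinogen, haptoglobin, serum amyloid A and hepcidin, and IL-1 acts beside it through its own receptor. PAI-1 is itself known as an acute phase protein.

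The mean normalized counts of the 10 genes added up to 22494.5, or 0.0749% of the table's total of 30045982. The highest was *Lifr* with 6081 and the lowest *Osmr* with 135. Because a longer transcript yields more reads, levels are compared between genes per kilobase (kb) of the longest annotated transcript. On this scale the order from the highest was *Stat3*, *Jak1*, *Lifr*, *Il1r1*, *Il6st*, *Socs3*, *Tyk2*, *Il6ra*, *Jak2* and *Osmr*. The highest member was 30.7 times the lowest. Several neighbours in this order lay close together, and with no error on the means their order is not established. *Stat3* was 1.03 times *Jak1*, and *Jak1* 1.16 times *Lifr*. *Tyk2* was 1.11 times *Il6ra*, which lay just above *Jak2*. By contrast *Osmr* stood apart, since *Jak2*, the next gene above it, was 4.83 times as high, and 10.7 and 3.05 times with the other lengths plotted. The union of all *Osmr* exons, 12113 bases against 5491 in the longest transcript, includes annotated retained introns. Ratios to *Osmr* taken with the union are raised by this.

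**Figure D1:**
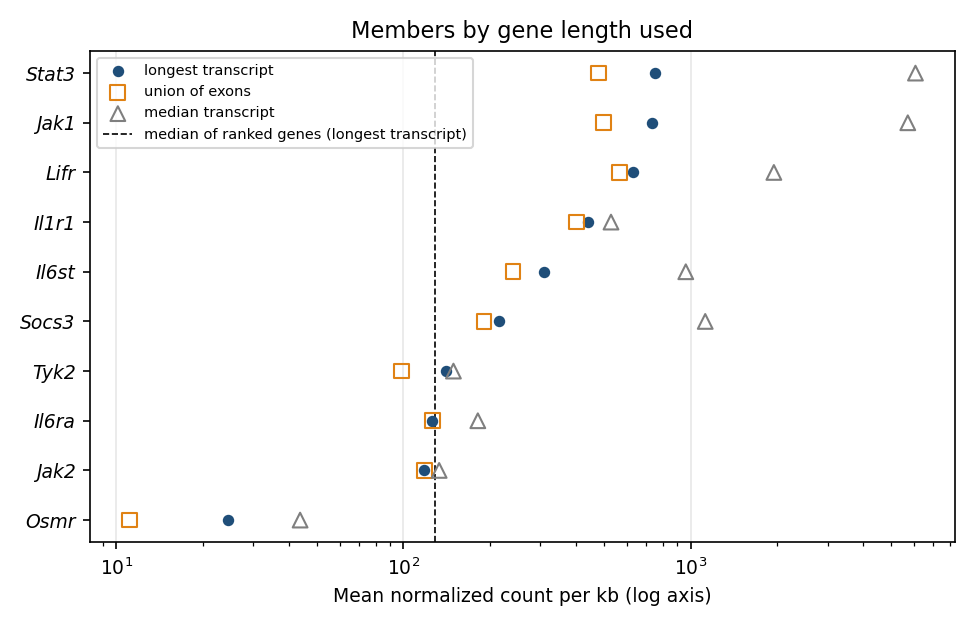
Mean normalized count per kb of the 10 genes on a log axis. Filled circles divide by the longest transcript, open squares by the union of all exons and open triangles by the median transcript length, and the dashed line is the median of all ranked genes with the longest transcript, 128.9. *Osmr* was lowest with each length, *Jak1* was the second highest with each, and the places of *Stat3* and *Lifr* depended on the length used.

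To place the genes among all others, every gene with a mean normalized count above 10 and a single annotated gene of its symbol was ranked, which gave 12499 genes with a median of 128.9 normalized counts per kb. Of the 10 genes, 7 were above that median, 4 were above the upper quartile of 392.5 and 0 were in the highest 10%. By definition 25% of the ranked genes lie above the upper quartile and 10% in the highest 10%. With 10 genes chosen by symbol, these counts do not set the group apart. *Osmr* alone lay under the lower quartile of 32.98.

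**Figure D2:**
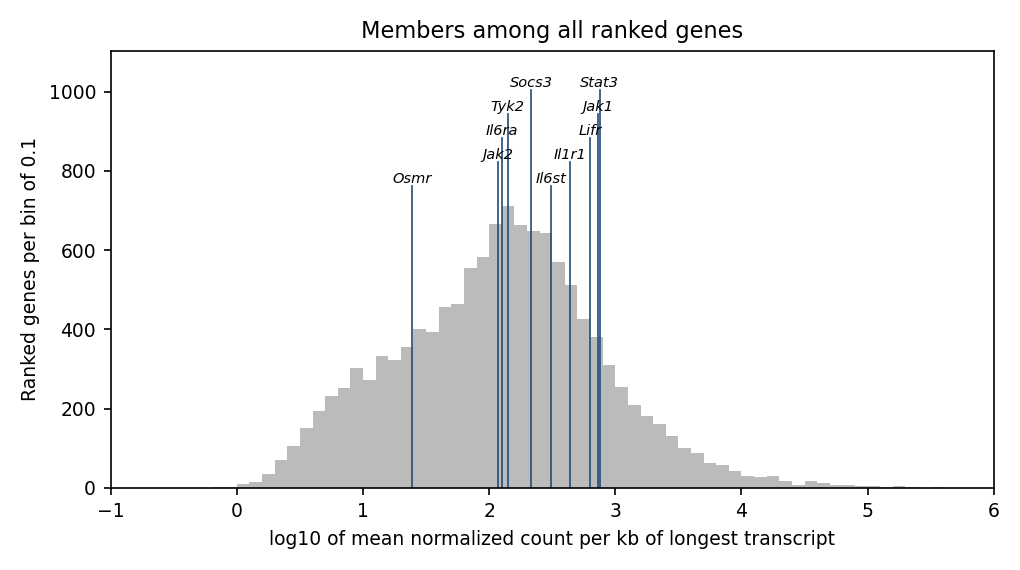
Number of ranked genes in each bin of 0.1 on the log10 scale of mean normalized count per kb, with a vertical line at each of the 10 genes. *Osmr* lies below the lower quartile, *Jak2*, *Il6ra* and *Tyk2* lie near the median and *Stat3*, *Jak1*, *Lifr* and *Il1r1* lie above the upper quartile of 392.5.

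*Il6st* encodes gp130, the signalling chain that IL-6, oncostatin M, leukaemia inhibitory factor (LIF) and their relatives have in common. It lies at chr13:112464070-112510086 on the plus strand of mm10, with 10 annotated transcripts, and its longest coding sequence specifies 917 residues. Its mean normalized count was 2673, or 308.0 per kb, above 70.2% of the ranked genes.

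*Il6ra* encodes the chain that binds IL-6 itself and lets a cell respond to the free cytokine. The gene lies at chr3:89864059-89913196 on the minus strand, and its 2 transcripts, of 3343 and 8639 bases, code for nearly the same protein of up to 460 residues. Its mean normalized count was 1088, or 125.9 per kb, above 49.4% of the ranked genes. The RNA of *Il6st* was therefore higher than that of *Il6ra*, by 2.45 times per kb of the longest transcript and 1.91 times per kb of all exons. Per kb of the median transcript length it was 5.30 times as high. That length, 2778 bases for *Il6st*, also counts transcripts as short as 201 bases, which raises the ratio. Which *Il6ra* transcript the reads came from was not measured, so the ratio per kb is uncertain, and neither protein was measured.

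*Lifr* encodes the partner of gp130 in the receptor for LIF and for several other cytokines of the family. It had the highest RNA level of the receptor genes of the group, with a mean normalized count of 6081, at rank 662 of all 24421 genes. Per kb it reached 629.8, above 82.8% of the ranked genes. That was 2.04 times *Il6st* and 25.7 times *Osmr*. The ratio to *Osmr* was 50.8 per kb of all exons and 44.7 with the median transcript length.

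The *Lifr* gene spans 106.9 kb at chr15:7090614-7197489 on the plus strand and has 8 annotated transcripts. Of these, *Lifr-201*, *Lifr-203* and *Lifr-204* code for 1092 residues, and *Lifr-202* and *Lifr-207* code for 719 residues, as does *Lifr-206*, which is annotated as a target of nonsense-mediated decay. Mice are known to make a soluble form of the LIF receptor from a shorter transcript, which circulates and binds the cytokine. A count per gene adds these transcripts together, so how much of the *Lifr* level belonged to the membrane form could not be read from these data. The lengths of the coding transcripts also differ, with 9655 bases in *Lifr-203* and 2844 in *Lifr-202*.

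*Osmr* encodes the other partner of gp130, specific to oncostatin M, and in liver it is known from stellate and other non-parenchymal cells as well as from hepatocytes. It lies near *Lifr*, at chr15:6813577-6874969 on the minus strand. Its mean normalized count was 135, or 24.5 per kb, above 20.9% of the ranked genes. *Il6st* was 12.6 times as high per kb and *Il6ra* 5.14 times. Per kb of all exons these ratios were 21.7 and 11.3, and with the median transcript length they were 22.0 and 4.16. Whole liver was measured here, and fewer cells of a type cannot be told apart from less RNA in each of its cells.

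*Il1r1*, the signalling receptor of IL-1, is not part of the gp130 family and was included because IL-1 and IL-6 act together on acute phase genes. The gene lies at chr1:40225080-40317257 on the plus strand, and its mean normalized count was 2552. At 438.6 per kb it was above 76.9% of the ranked genes. It was 1.42 times *Il6st* per kb of the longest transcript, but 0.549 times when the median transcript length was used.

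Of the 3 kinase genes, *Jak1* had by far the highest RNA level. *Jak1* is the kinase that gp130 signalling depends on most, whereas *Jak2* is best known downstream of growth hormone and erythropoietin and *Tyk2* downstream of interferons and interleukin-12. *Jak1*, at chr4:101152367-101265282, had a mean normalized count of 3597, or 733.1 per kb, above 84.9% of the ranked genes. *Tyk2*, at chr9:21104068-21131243, had 676 and 140.1 per kb. *Jak2*, at chr19:29251828-29313080, had 595 and 118.3 per kb.

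*Jak1* was 5.23 times *Tyk2* and 6.20 times *Jak2* per kb of the longest transcript, and 5.05 and 4.21 times per kb of all exons. With the median transcript length, which for *Jak1* is 630 bases, they were 38.2 and 42.9. *Tyk2* and *Jak2* were close to each other and to the median of all ranked genes. Which of these was higher turned on the length, because *Tyk2* was 1.18 times *Jak2* with the longest transcript and 0.833 times with all exons. The longest coding sequences of the 3 kinases are alike in size, at 1153 residues for *Jak1*, 1132 for *Jak2* and 1207 for *Tyk2*. The fourth kinase of the family, *Jak3*, which is known from lymphocytes, had a mean normalized count of 484 and 119.6 per kb, about the level of *Jak2*, which was 1.31 times as high per kb of all exons.

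*Stat3* encodes the transcription factor that carries the IL-6 signal to the nucleus. It lies at chr11:100885098-100939540 on the minus strand and has 14 annotated transcripts, of which 4 are protein-coding. Its mean normalized count was 4547, at rank 916 of all genes, and its 752.6 per kb was above 85.2% of the ranked genes. Among the 7 STAT genes it was the highest per kb of the longest transcript, at 1.28 times *Stat6*, but per kb of all exons it was 0.950 times *Stat6*. *Stat4*, known from T cells and natural killer cells, was lowest at 4.11 per kb.

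*Socs3* encodes the inhibitor that binds gp130 and JAK1 and ends the signal. It is both a direct target of STAT3 and its brake, and its transcript is known to be short-lived. The gene is small, 3.97 kb at chr11:117966079-117970047 on the minus strand, with 1 protein-coding transcript of 2 exons and 225 residues. Its mean normalized count was 551, or 215.9 per kb, above 62.2% of the ranked genes. *Stat3* was 3.49 times as high per kb of the longest transcript and 2.50 times per kb of all exons, and 5.40 times with the median transcript length.

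Among the related inhibitor genes, *Socs2*, best known as a target of growth hormone and STAT5, was 1.62 times *Socs3* per kb of the longest transcript but 0.815 times per kb of all exons. *Cish*, another target of STAT5, stood at 121.5 per kb, and *Socs3* was 1.78 times as high, or 5.40 times with the median transcript length. *Socs1*, known as a target of interferon gamma, was scarcely detected, with a mean normalized count of 7.86, and *Socs3* was 79.9 times as high per kb, or 407 times with the median transcript length. The median length of *Socs3*, 490 bases, is that of a non-coding transcript, which raises both ratios taken with it.

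The rest of the pathway was taken from lists that hold 64 further genes of the table. Of these, 57 were ranked and 40 lay above the median of all ranked genes. The 40 include every listed liver target of STAT3 other than *Socs3*, a member. In the other lists, members included, 0 of 2 ranked ligand genes and 3 of 6 receptor genes were above it. So were 3 of 7 ranked IL-1 genes, 2 of 4 Janus kinase genes, 5 of 7 STAT genes and 8 of 15 ranked inhibitor genes. The parts of the pathway differed widely in level. The ligand genes were lowest: 5 of 7 had a mean normalized count of 10 or less. *Il6* itself was at 0.689, *Il11* at 1.01, *Osm* at 1.19 and *Lif* at 2.76. The highest ligand was *Ctf1*, cardiotrophin 1, with 157.6, or 116.6 per kb. These cytokines are known to come largely from macrophages, lymphocytes and other tissues, and a low transcript level in liver gives no measure of the circulating protein.

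All 6 receptor genes of the IL-6 family had means above 10. Beside the 4 members, *Il11ra1* stood at 157.8 per kb and *Cntfr* at 31.6 per kb, so that *Osmr* was the lowest of the 6 and *Lifr* the highest. *Il11ra1* is uncertain, since 50.3% of the 75-base stretches of its longest transcript also occur in near-identical copies such as *Gm13305*. Of the 8 IL-1 genes listed, *Il1rap*, the accessory chain that IL-1 receptors need for signalling, was the highest at 1046 per kb, or 2.38 times *Il1r1*, a ratio that was 1.04 per kb of all exons. The decoy receptor *Il1r2* had a mean normalized count of 2.57. *Il1b*, with 44.7, and *Il1a*, with 99.98, were low but were not at the level of *Il6*.

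Of the 16 inhibitor genes, 8 of 15 ranked ones were above the median, and the 16 ranged from 2.70 per kb for *Socs1* to 401.8 for *Pias2*, one of the inhibitors that bind activated STATs. The 27 genes listed as liver targets of STAT3 were all above the median of ranked genes, and 21 were in the highest 10%. They ranged from 130.0 per kb for *Cebpd*, an early transcription factor of the acute phase, to 106553 for *Hpx*, the haem carrier hemopexin. *Fga*, a fibrinogen chain, was 105.6 times *Stat3* per kb of the longest transcript and 14.5 times with the median transcript length, which for *Stat3* is 749 bases. STAT3 activity was not measured, so these levels give no measure of it, and what set them was not tested. *Socs3*, at 215.9 per kb, belonged to the 6 of 27 outside the highest 10%.

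**Figure D3:**
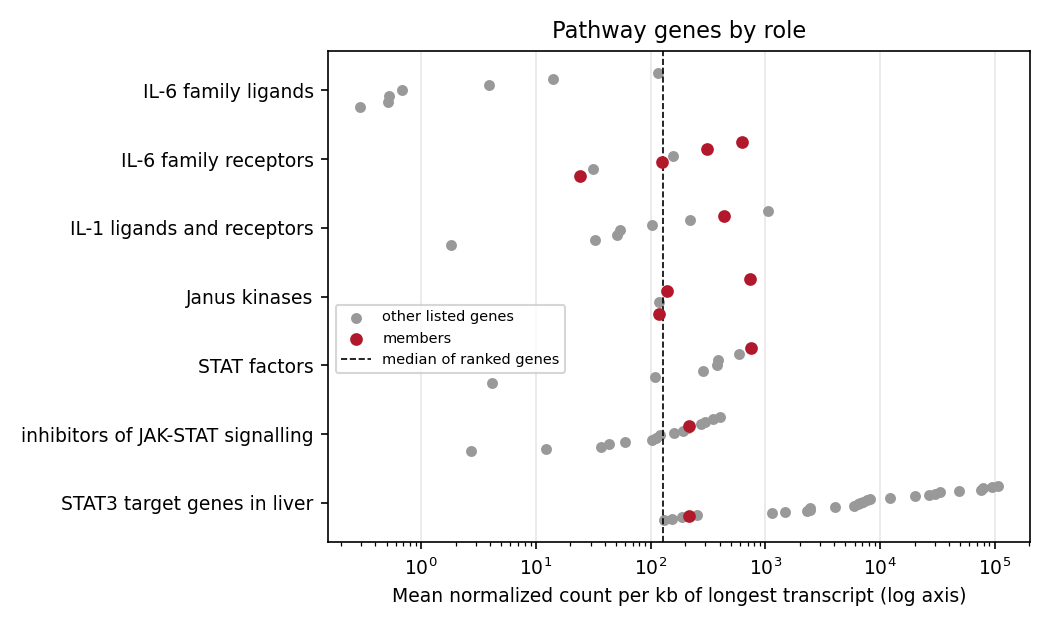
Mean normalized count per kb of the longest transcript on a log axis for each listed gene of the pathway, by role. Members are red, other listed genes grey, *Socs3* appears both as an inhibitor and as a target, and the dashed line is the median of ranked genes, 128.9. Most ligands lie far to the left of the receptors, and the target genes reach 106553.

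STAT3 binds the sequence TTCNNNGAA, in which N is any base and which reads alike on both strands. Windows of 300 bases around annotated starts, 250 before and 50 after, were searched for it in RefSeq sequence of GRCm38.p6, the assembly also named mm10. All 10 members had a window and 2 of them had 2 windows. Of these 12 windows, 1 held the letters, that of *Socs3*. Of all 32851 windows, 8.30% held them. Of the 27 listed target genes, 22 had a window, and 7 of these windows held the letters, *Socs3* included. A match says only that these letters occur there, and a window without them says nothing of a gene's other starts. The windows of *Osmr* and *Jak1* lay nearest the starts of the non-coding transcripts *Osmr-205* and *Jak1-203*. Those of *Lifr* lay at the starts of *Lifr-202* and *Lifr-204*, both inside the gene. The pieces around 6 of the 7 matches are shown, since STAT3 is known to act through these letters. Each runs 5′ to 3′ on the strand of its gene, with the match in capitals and up to 15 bases on each side.

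Socs3: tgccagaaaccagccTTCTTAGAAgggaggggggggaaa
Fga: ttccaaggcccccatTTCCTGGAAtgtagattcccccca
Fgb: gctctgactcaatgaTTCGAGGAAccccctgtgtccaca
Apcs: atcttcTTCTAGGAAagcacagggtcatga
Steap4: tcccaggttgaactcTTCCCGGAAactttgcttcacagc
Itih4: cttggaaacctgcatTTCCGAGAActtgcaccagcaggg

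The *Socs3* piece lies at chr11:117969497-117969535 on the minus strand, with the match starting 154 bases before the start that RefSeq gives this window. In the GENCODE annotation that position is in an intron of *Socs3*, because the window belongs to a downstream start, 85 bases from that of the non-coding transcript *Socs3-203*, and not to the start of the coding transcript. The region before the coding transcript's own start was not analysed here. The pieces of the fibrinogen chains *Fga*, at chr3:83025904-83025942 on the plus strand, and *Fgb*, at chr3:83050002-83050040 on the minus strand, hold matches outside the annotated genes. *Fga* and *Fgb* had mean normalized counts of 205492 and 184798, while *Socs3* had 551. Per kb of the longest transcript these were 79432.5, 48503 and 215.9. Any relation between the letters and the level of a gene was not tested. No binding of STAT3 was measured in these livers.

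Reads of most members could be told apart from those of other genes along their longest transcript. In 9 of the 10 genes, 0 stretches of 75 bases, the length of the reads, of the longest transcript occurred in a transcript of any other gene on either strand. In *Il6ra* 1.96% did, all of them in *Gm42809*, an annotated antisense RNA. With exons of all transcripts, 4 members share bases with a gene on the other strand. *Tyk2* shares 554 bases, or 8.07% of its exons, with the antisense RNA *1700084C06Rik*. *Il6ra* shares 242 bases with *Gm42809*. *Stat3* shares 72 bases with *Stat5a*, and *Jak1* shares 4 with *Raver2*. Whether reads were counted by strand is not given in the sources used here, so a contribution of the antisense RNAs to *Tyk2* and *Il6ra* was not tested.

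The tissue matched its label. All 8 hepatocyte markers, such as albumin and *Hnf4a*, were in the highest 10% of ranked genes and together took 10.4% of all normalized counts. All 7 Kupffer cell markers were present, from 173.0 to 2374 normalized counts, and so were the 7 endothelial markers, from 204.6 to 1273, the 7 stellate cell markers, from 134.9 to 4160, and the 5 bile duct markers, from 25.8 to 1170. Of these cells, several are known to express gp130, IL-1 and oncostatin M receptors, and the share of each member that came from them was not measured. Of 5 neutrophil markers in the table, *S100a9* had 71.5 normalized counts, or 137.7 per kb, just above the median of ranked genes, and 3 had means of 10 or less. The 6 lymphocyte markers ranged from 5.20 to 35.2. The 4 globin genes *Hba-a1*, *Hba-a2*, *Hbb-bs* and *Hbb-bt* are listed at 0, while *Alas2*, an enzyme of haem synthesis in red cells, had a mean of 2136. Between 56.6% and 81.0% of the 75-base stretches of the globin transcripts also occur in another gene. The members share almost no sequence of this kind. Why the globin genes are listed at 0 was not tested, and blood cannot be judged from them.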

How the data were processed

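Single-end reads of 75 bases were aligned by the authors to mm10 with STAR and analysed with DESeq2 in the RNA Express BaseSpace application. The labels also name HOMER. Versions, gene annotation and strand setting are not given in the sources used here. The signal used is the column of mean normalized counts in the authors' deposited table: counts divided by size factors and averaged over the libraries of both genotypes. The remaining columns of that table hold the authors' own comparison (log2 fold changes, standard errors, test statistics, p-values and a status) and were not used. The 6 columns of the deposited counts per animal were not used either, because their headings match no label. The planned test of genotypes was therefore not run, and depth per library, intervals and errors are not given.

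Levels were divided by the longest transcript in GENCODE M21 on GRCm38, and 96.4% of the genes with a mean above 10 matched 1 gene by symbol. Of 7 motif matches, 1 is not reported here. Shared stretches of 75 bases were found with exact words in GENCODE transcripts. The functions were tested on simulated data. All 10 members are named, with the highest and lowest genes of each pathway list. Other list genes and the markers that are named were chosen after their values were seen. Members and lists were chosen with earlier results of these data known. Python 3.11.15, NumPy 2.4.6, pandas 2.3.3 and Matplotlib 3.10.9 were used.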

Additional observations from a re-analysis of the deposited data

How the results depend on the processing

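The length by which a mean is divided decided part of the order. The median transcript length also counts non-coding transcripts, and was 490 bases for *Socs3*, 630 for *Jak1* and 749 for *Stat3*. Of the 10 genes, 5 kept their place with the union of all exons, 6 with the median transcript length and 2 when means were not divided by length. The number above the upper quartile was 4 as reported, 4 with either other length, and 5 when all genes above 0 were ranked or when means were not divided. *Osmr* was lowest under each length and undivided. Of the 45 pairs of members, 5 changed sides with the union of all exons, 4 with the median transcript length and 7 undivided. With the union, *Tyk2* was 0.833 times *Jak2* and 0.783 times *Il6ra*, *Stat3* was 0.959 times *Jak1* and 0.846 times *Lifr*, and *Jak1* was 0.882 times *Lifr*. With the median length, *Il1r1* was 0.549 times *Il6st* and 0.470 times *Socs3*, *Socs3* was 1.17 times *Il6st*, and *Tyk2* was 0.822 times *Il6ra*. Undivided, *Il1r1* was 0.955 times *Il6st*, *Stat3* 0.748 times and *Jak1* 0.591 times *Lifr*, *Tyk2* 0.622 times *Il6ra*, and *Socs3* 0.815 times *Tyk2*, 0.507 times *Il6ra* and 0.926 times *Jak2*. Ratios to other pathway genes, tried after seeing the data, changed sides for *Stat3* over *Stat6* (0.950) and *Socs2* over *Socs3* (0.815) with the union, for *Socs3* over *Cish* (0.966) undivided, and for *Jak2* over *Jak3* with each (1.31, 1.10 and 1.23). No paired analysis was possible because the columns of counts carry no replicate number and no sample. No count per animal was used, so other size factors, no filter on low counts, another count test, the replicate block and leaving out each replicate were not run.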
